A study of Homo sapiens with 12 samples.

Results

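Transcripts of ion channel families were examined in K562 cells and in their imatinib-resistant derivative. Members were the rows of the gene count table whose symbol begins with the stem of a channel family: KCN (potassium), SCN (sodium), CACN (calcium), CLCN (chloride), TRPA, TRPC, TRPM and TRPV (transient receptor potential), GABR (GABA-A receptors), GRIA, GRIK and GRIN (ionotropic glutamate receptors), CHRN (nicotinic acetylcholine receptors) and P2RX (ATP-gated receptors). This rule took 231 of 19447 symbols and used no measured value, but the families were chosen with earlier results of these data known. A few of the 231 are not channels. TRPC4AP encodes a partner protein, KCNRG a regulator, and 5 rows are antisense or opposite-strand transcripts.

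K562 is an established human myeloid leukaemia line that carries the BCR-ABL1 fusion, the target of imatinib. Poly(A) RNA was sequenced in 4 groups of 3 libraries each. K562 was the untreated parental line and K562+L the same line given lycorine, an alkaloid, at 6 µM. K562/IM was the line adapted to imatinib by stepwise increases and kept at 5 µM. The K562/IM+L libraries were labelled as K562/IM cells given lycorine, which the study used at 6 µM. Runs of 4 group means below follow the order of these sentences. The resistant line was not described as a single clone or as several derived lines, the treatment time before sequencing was not given for these libraries, and nothing states that the 3 libraries of a group came from separate cultures. The p-values therefore measure the spread between these libraries, which may be technical.

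Ion channels open a pore for ions across a membrane. Voltage-gated potassium, sodium and calcium channels respond to membrane potential, and their pore subunits work with auxiliary subunits. TRP channels pass cations in response to chemical, thermal or mechanical stimuli. GABA-A, glutamate, nicotinic and P2X receptors open when a transmitter or ATP binds. Many of these genes are best known from neurons and muscle, while blood cells are known for KCNN4, P2RX1, P2RX4, TRPV2 and KCNH2 among others.

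The libraries held between 75093844 and 107344598 counts in total. One limit of the labels bears on every result with lycorine in the resistant line. The group number in these libraries' labels differs from the one the study's drawings give that condition. ABCB1, the multidrug efflux pump, was at 21.9 to 25.8 CPM (counts scaled to the effective library size) in K562/IM and at 0.49 to 1.06 CPM in the libraries labelled K562/IM+L, which is under the 1.68 to 1.86 CPM of K562. The levels of 11 erythroid and myeloid markers, all of them detected, were summed. The sum was 6269 to 8663 CPM in K562, 4216 to 4845 in K562+L, 2872 to 3118 in K562/IM and 32668 to 46002 in K562/IM+L. The 3 libraries labelled K562/IM+L thus stood apart from both lines, and whether lycorine alone separates them from K562/IM was not tested. Their sum was mostly globin, with means of 17029 CPM for HBG2, 11151 for HBZ and 8534 for HBG1. By the calls defined below, 8 of the 11 were higher and 1, CD33, lower in K562/IM+L against K562/IM, beside 14.7% and 13.8% of all genes. CD33 had means of 15.4 CPM in K562/IM and 1.60 in K562/IM+L. GATA1 was called in no comparison, and HBE1 was higher in K562/IM than in K562 (means 544 and 97.6 CPM). Summed markers of neurons were at 6.32 to 15.4 CPM over the 12 libraries, with 3 to 5 of 8 genes at 0 in each group. Those of muscle were at 32.0 to 84.1 CPM over 7 genes. The neuron sum was mostly TUBB3 and the muscle sum mostly TTN, which had group means of 43.65 to 76.72 CPM. Lymphoid markers summed to 25.4 to 27.1 CPM in K562/IM against 0.796 to 3.86 elsewhere, and fibroblast markers to 20.4 to 25.2 CPM against 0.643 to 1.62. In K562/IM the lymphoid sum was mostly CD3D (mean 22.01 CPM). The fibroblast sum was mostly COL1A2 (17.14) and COL1A1 (4.28). Against K562, all 3 lymphoid and all 5 fibroblast genes tested were called higher in K562/IM. The sums thus reflect mainly the genes named and are no measure of a cell type. The part of these markers in the results below was not tested. In bulk RNA, fewer cells with a transcript and less of it per cell cannot be told apart.

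Before the levels, the 250 bases upstream of the RefSeq transcription start are given for 4 members on which the results turn (GRCh38.p14). They are shown 5′ to 3′ in lower case, with each CG dinucleotide in capitals, because CG-rich and CG-poor upstream sequences were both found among members with large changes.
GABRE (chrX:151974677-151974926, minus strand): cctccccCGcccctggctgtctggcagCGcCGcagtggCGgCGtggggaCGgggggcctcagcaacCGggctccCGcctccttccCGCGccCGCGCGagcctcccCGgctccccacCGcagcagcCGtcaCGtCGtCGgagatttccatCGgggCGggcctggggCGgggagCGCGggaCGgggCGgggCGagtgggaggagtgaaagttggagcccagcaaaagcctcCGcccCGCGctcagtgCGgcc
GABRG1 (chr4:46124055-46124304, minus strand): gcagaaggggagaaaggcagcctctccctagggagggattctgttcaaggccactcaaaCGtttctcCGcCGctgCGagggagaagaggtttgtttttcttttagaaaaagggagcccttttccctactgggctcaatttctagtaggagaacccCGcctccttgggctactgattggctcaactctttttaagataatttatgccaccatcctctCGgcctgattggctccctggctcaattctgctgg
SCN9A (chr2:166375945-166376194, minus strand): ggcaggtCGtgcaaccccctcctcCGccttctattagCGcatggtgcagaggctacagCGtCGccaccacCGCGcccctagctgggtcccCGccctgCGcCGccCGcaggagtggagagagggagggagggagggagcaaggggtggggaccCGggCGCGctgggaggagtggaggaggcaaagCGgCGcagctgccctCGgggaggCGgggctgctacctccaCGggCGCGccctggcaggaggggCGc
CACNA1F (chrX:49233341-49233590, minus strand): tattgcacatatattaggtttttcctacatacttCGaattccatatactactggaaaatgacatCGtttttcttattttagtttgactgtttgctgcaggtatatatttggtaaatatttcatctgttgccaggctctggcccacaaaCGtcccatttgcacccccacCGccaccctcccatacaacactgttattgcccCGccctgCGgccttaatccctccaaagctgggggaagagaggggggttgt
The sequence before GABRE held 31 CG dinucleotides and had a GC content of 76.8%, and 89.1% of 35116 windows of the same length held fewer. SCN9A had 22, with 72.0% of windows below it. GABRG1 and CACNA1F had 6 each, with 38.1% of windows below them. The median was 11 over all windows and 10 over the 245 windows of the 162 members that had one. The letters AGATAA, a motif of the GATA factors of blood cells, searched on both strands, were found in the window of GABRG1 and not in those of GABRE, SCN9A and CACNA1F. They were in 9.17% of all windows and in 6.12% of member windows.

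Most channel genes were at or near the limit of detection. Of the 231 members, 28 had no count in any library, 123 had counts but stayed under 1 CPM everywhere, and 80 reached 1 CPM in at least 1 library. Only 38 were at 1 CPM or more in all 12 libraries, and 35 reached 10 CPM somewhere. All 8 CACNG genes, which encode calcium channel gamma subunits and AMPA receptor partners, were too low to be tested in any comparison. The highest of them, CACNG1, had counts in 1 library alone, at 0.112 CPM.

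Per kilobase of exon, KCNH2 had the highest level, with a mean of 78.5 CPM per kilobase over the 12 libraries. It encodes the pore of the hERG potassium channel. TRPC4AP followed at 45.7, then CLCN7, the lysosomal chloride-proton exchanger, at 35.7 and GABRE, the epsilon subunit of GABA-A receptors, at 29.3. TRPV2, a cation channel known from leukocytes, had 25.6, and the acid-sensitive background potassium channel KCNK5 had 19.6. KCNH2 alone took 30.6% of all member counts in K562 and 16.0% in K562/IM, where GABRE took 14.4%. The plot of levels per length shows these genes above their subfamilies.

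**Figure D1:**
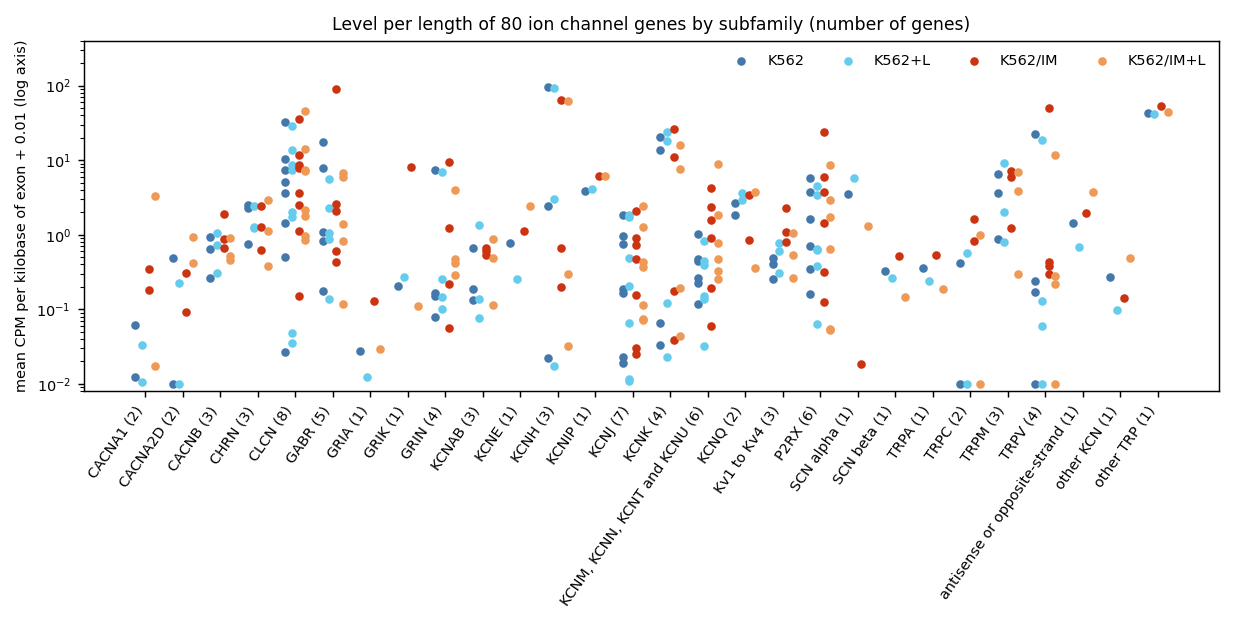
Mean CPM per kilobase of exon plus 0.01, on a log axis, for the 80 members that reached 1 CPM in at least 1 library, by subfamily (number of genes in brackets), with 1 point per gene and group. KCNH2, at 61.3 to 96.6 CPM per kilobase, and GABRE in K562/IM, at 91.5, are the highest points.

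KCNH2 was measured at 415, 531 and 523 CPM in K562, at 506, 477 and 420 in K562+L, at 324, 320 and 322 in K562/IM and at 313, 321 and 298 in K562/IM+L. All 6 libraries of K562/IM and K562/IM+L were under all 6 of K562 and K562+L. The log2 fold change of K562/IM against K562 was -0.60 ± 0.10 (SE, n = 3 per group, adjusted p = 0.00149, edgeR quasi-likelihood test), which is under the fold of 2 required for a call. CLCN7 was at 136, 166 and 162 CPM in K562 and at 215, 221 and 203 in K562/IM+L, a log2 difference of 0.44 ± 0.10 that was also too small for a call. CLCN3 and CLCN6, intracellular chloride-proton exchangers, were at group means of 74.9 to 102 and 44.6 to 47.7 CPM and were called in no comparison. These 4 genes were high in every group and passed the fold threshold in no comparison.

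As a share of all counts, the members took 0.153% ± 0.00259 (SD, n = 3) in K562, 0.155% ± 0.00544 in K562+L, 0.219% ± 0.00455 in K562/IM and 0.139% ± 0.00764 in K562/IM+L. The K562/IM libraries were all above those of every other group, and the K562/IM+L libraries all below them. An exact two-sided permutation test gave p = 0.1 for K562/IM against K562 and for K562/IM+L against K562/IM, the smallest p that 3 against 3 libraries allow, and p = 0.9 for K562+L against K562.

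A member was called where the edgeR quasi-likelihood test gave an adjusted p under 0.05 (Benjamini-Hochberg over all genes tested) and the log2 fold change exceeded 1 in size. In K562/IM against K562, 113 members had enough counts to be tested. Of these, 36 were higher and 10 lower in K562/IM, beside 13.9% of all 13406 genes tested called higher and 5.29% called lower. The median log2 fold change was 0.67 over the members, or 0.62 with genes at 0 in 1 group set to their bound, and 0.04 over all genes. In K562+L against K562, 3 of 96 members tested were higher and 10 lower, where 2.38% and 4.01% of all genes were called. That total of 13 became 8 without K562 replicate 3 and 20 without K562 replicate 1. In K562/IM+L against K562/IM, 27 of 115 were higher and 32 lower, where the shares of all genes were 14.7% and 13.8%. In K562/IM+L against K562, 23 of 106 were higher and 13 lower, beside 14.9% and 8.91%. The bar plot of called shares sets these side by side.

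**Figure D2:**
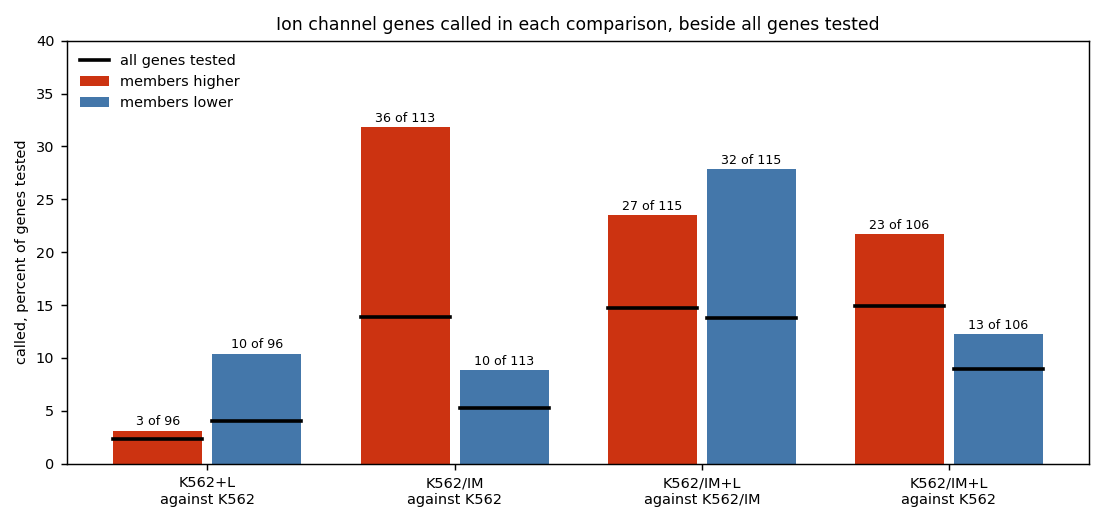
Percent of tested members called higher or lower in each of the 4 comparisons (bars, with the counts above them) and the same percent over all genes tested (black lines). The largest gap is in K562/IM against K562, where 36 of 113 members were higher and 13.9% of all genes were.

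Calls depended on level. Members were lower than other genes, with a median of 1.67 CPM against 30.3 in the libraries of K562/IM and K562, and low genes were called more often. In bands of level chosen after the data were seen, 17 of 50 tested members under 1 CPM were called in K562/IM against K562 (34.0%) and 40.2% of the 1762 other genes were. From 1 to 10 CPM the shares were 53.7% of 41 members and 41.5% of 2275 other genes, and from 10 CPM 31.8% of 22 members and 9.38% of 9256 other genes. In K562+L against K562 the members' shares in the same bands were 6.67%, 30.0% and 4.76%, and those of other genes 11.7%, 14.9% and 3.28%. With no fold threshold, 58.4% of the members and 57.1% of all genes passed the adjusted p in K562/IM against K562, and 29.2% and 37.3% in K562+L against K562. Without that threshold the members' share was thus close to that of all genes in the first of these comparisons and below it in the second.

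Of 6 GABA-A receptor genes tested in K562/IM against K562, 2 were higher and 1 lower, beside 13.9% and 5.29% of all genes. GABRE was at 57.4, 51.1 and 56.2 CPM in K562, 7.04, 7.11 and 7.31 in K562+L, 286, 288 and 291 in K562/IM and 18, 20.2 and 18.2 in K562/IM+L. No library of any group overlapped another group. GABRE rose in K562/IM against K562 (log2 fold change 2.39 ± 0.08, adjusted p = 5.65e-07), fell with lycorine in K562 (-2.94 ± 0.09, adjusted p = 6.79e-06) and fell in K562/IM+L against K562/IM (-3.92 ± 0.08, adjusted p = 1.05e-07). It was the single GABA-A subunit called in all 4 comparisons. Its exons include those of the microRNA genes MIR224 and MIR452, on the same strand.

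GABRQ, the theta subunit, lies beside GABRE and GABRA3 on the X chromosome (GABRE at chrX:151953124-151974680, GABRA3 at chrX:152166234-152451358 and GABRQ at chrX:152638183-152657534, GENCODE 29 on GRCh38). It was at 1.69, 0.715 and 0.694 CPM in K562, 0.970, 0.600 and 0.823 in K562+L, 15.1, 14.9 and 17.6 in K562/IM and 0.403, 0.686 and 0.925 in K562/IM+L. Only the K562/IM libraries were high. The rise in K562/IM against K562 had a log2 fold change of 3.94 ± 0.34 (adjusted p = 5.98e-05) and the fall in K562/IM+L against K562/IM one of -4.53 ± 0.29 (adjusted p = 9.70e-06). GABRA3, the alpha-3 subunit between them, was at means of 4.24, 4.12, 8.18 and 5.48 CPM in the parental line without and with lycorine and in the resistant line without and with it. Its log2 fold change of 0.95 in K562/IM against K562 (adjusted p = 0.000608) was just under the fold required.

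GABRG1, the gamma-1 subunit on chromosome 4 (chr4:46035769-46124081), went the other way. It was at 62.3, 51.9 and 45.3 CPM in K562 and 35.4, 37.2 and 39.8 in K562+L, but at 2.61, 3.50 and 2.57 in K562/IM and again at 42.2, 42.5 and 50.9 in K562/IM+L. The fall in K562/IM against K562 was -4.20 ± 0.18 (adjusted p = 2.13e-06) and the rise in K562/IM+L against K562/IM 3.99 ± 0.16 (adjusted p = 1.30e-06). The libraries labelled K562/IM+L overlapped those of K562. GABRG3, a further gamma subunit, was at 6.74 to 9.70 CPM as group means and was called nowhere, and GABRR2, a rho subunit, was called once, higher in K562/IM+L than in K562. GABRR2 and every other GABR gene stayed under 1 CPM in each library.

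ATP-gated P2X receptors were next. P2RX1, a receptor known from platelets and neutrophils (chr17:3896592-3916500), was at 1.98, 1.45 and 2.22 CPM in K562, 0.150, 0.138 and 0.144 in K562+L, 63.4, 61.8 and 69.0 in K562/IM and 0.113, 0.0560 and 0.191 in K562/IM+L. In K562/IM+L these were 9, 4 and 18 counts. P2RX1 rose in K562/IM (5.10 ± 0.16, adjusted p = 6.13e-07), fell with lycorine in K562 (-3.70 ± 0.31, adjusted p = 0.000244) and fell in K562/IM+L against K562/IM (-8.97 ± 0.25, adjusted p = 3.26e-07). Both lycorine groups were at or near 12 counts per library, which is taken here as the limit that 3 sequenced fragments allow, so the size of either fall is uncertain.

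Other P2X genes did not share that pattern. P2RX5 fell in K562/IM+L against K562/IM, from 11.1, 9.94 and 10.8 CPM to 4.52, 5.18 and 5.03 (-1.09 ± 0.12, adjusted p = 0.000123), and it was at 15.0 to 16.9 CPM in K562. It shares 1743 bases of exon with the read-through gene P2RX5-TAX1BP3 on the same strand. P2RX6 fell with lycorine in K562, from 5.02, 5.90 and 6.83 CPM to 2.90, 2.15 and 1.77 (-1.38 ± 0.22, adjusted p = 0.00305), and rose in K562/IM+L against K562/IM, from 5.37, 4.96 and 5.62 to 12.1, 12 and 7.79 (1.02 ± 0.18, adjusted p = 0.00184). P2RX2 rose with lycorine in K562, from 0.380, 0.250 and 0.257 CPM to 1.33, 1.08 and 1.32 (2.07 ± 0.32, adjusted p = 0.00271). P2RX4, the most abundant P2X gene per length after P2RX1, had group means of 7.75, 7.14, 12.3 and 18 CPM and was higher only in K562/IM+L against K562 (log2 fold change 1.19, adjusted p = 0.00118).

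Among glutamate receptors, GRIK1, which encodes the kainate subunit GluK1, was detected at 33.0, 33.2 and 34.4 CPM in K562/IM. In the other groups it was at 1.01, 0.906 and 0.566 (K562), 1.13, 0.877 and 1.27 (K562+L) and 0.555, 0.294 and 0.404 CPM (K562/IM+L). The K562/IM libraries stood far above the 9 others. The log2 fold change was 5.34 ± 0.20 against K562 (adjusted p = 1.11e-06), and that of K562/IM+L against K562/IM was -6.29 ± 0.20 (adjusted p = 5.12e-07). GRIK1 shares 45 bases of exon with BACH1 on the opposite strand, and whether the counting used strand was not given in the sources used here.

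GRIN2D, an NMDA receptor subunit, was the most abundant glutamate receptor gene per length. It was at 39.8, 34.8 and 37.9 CPM in K562, 37.5, 37.0 and 31.0 in K562+L, 49.5, 46.5 and 49.7 in K562/IM and 22.4, 21.2 and 17.9 in K562/IM+L, a fall of 1.22 on the log2 scale against K562/IM (SE 0.10, adjusted p = 2.83e-05). GRIN2C, its relative, had group means of 0.722, 1.12, 5.65 and 1.90 CPM and rose in K562/IM against K562 by a log2 fold change of 2.97. GRIA4 was the one AMPA receptor gene called, higher in K562/IM (mean 1.09 CPM) than in K562 (0.163). Members of 1 receptor type thus differed in direction, with GRIN1 lower and GRIN2C and GRIN3B higher in K562/IM.

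Of the nicotinic receptor genes, 1 of 5 tested was lower in K562+L against K562, beside 4.01% of all genes. In K562/IM+L, 1 of 6 tested was lower against K562/IM and 1 of 6 against K562, beside 13.8% and 8.91% of all genes. CHRNB1, the muscle-type beta-1 subunit, fell with lycorine in K562 from 6.48, 6.44 and 8.31 CPM to 3.81, 3.57 and 3.07 (-1.02 ± 0.16, adjusted p = 0.00311). That call was lost without K562 replicate 3 and without K562+L replicate 3, with log2 values of -0.89 to -1.09 over all settings tried. CHRNA5 fell in K562/IM+L against K562/IM, from 4.92, 4.84 and 3.79 CPM to 0.781, 1.95 and 1.31 (-1.73 ± 0.32, adjusted p = 0.00220). It shares 198 bases of exon with CHRNA3 on the opposite strand, which was at means of 0.127 to 0.482 CPM. No CHRN gene of the 6 tested was called in K562/IM against K562, beside 19.1% of all genes.

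Of 4 sodium channel pore genes tested in K562/IM against K562, 2 were lower and 1 higher, beside 5.29% and 13.9% of all genes. SCN9A, which encodes the pore subunit NaV1.7 known from sensory neurons (chr2:166195185-166376001), was at 43.2, 35.2 and 30.1 CPM in K562 and 54.1, 53.4 and 69.2 in K562+L. In K562/IM it had 8, 5 and 13 counts, or 0.0958, 0.0521 and 0.121 CPM. In K562/IM+L it was at 11.5, 12.1 and 17.0 CPM. The log2 fold change was -8.62 ± 0.26 in K562/IM against K562 (adjusted p = 5.00e-07) and 7.23 ± 0.31 in K562/IM+L against K562/IM (adjusted p = 1.74e-06), both resting on those few counts in K562/IM. K562/IM+L stayed under K562 (-1.44 ± 0.19, adjusted p = 0.000666).

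SCN2A, a pore subunit gene of the same chromosome, had no count in K562/IM and 17 to 40 counts per library in K562, so that it was at least 2.67-fold lower in K562/IM. Against that group it was at least 4.10-fold higher in the libraries labelled K562/IM+L. SCN3B, an auxiliary subunit, was likewise at 0 in K562/IM and at 0.504, 0.448 and 0.596 CPM in K562/IM+L, at least 3.59-fold higher. These bounds set the group at 0 to 12 counts per library.

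**Figure D3:**
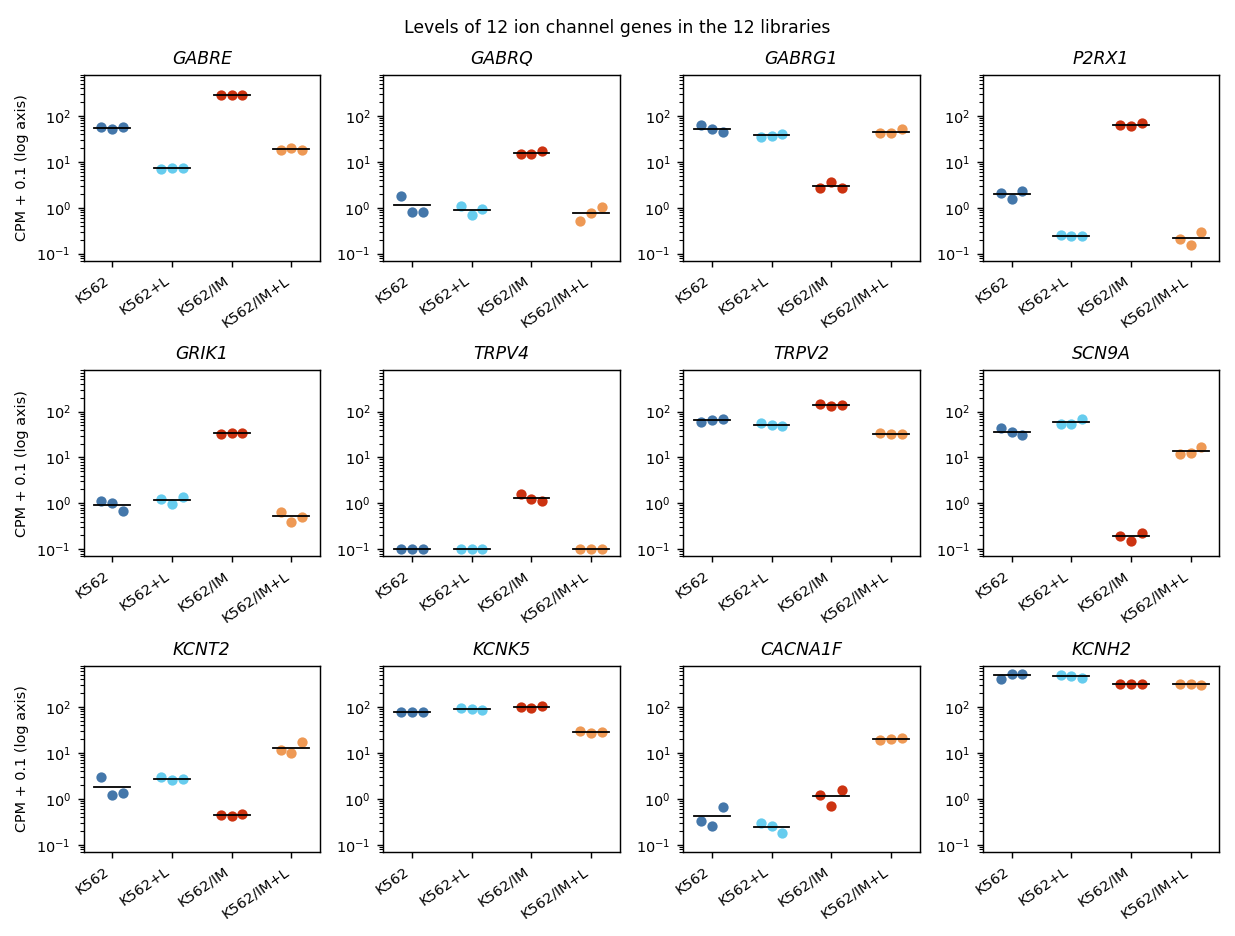
CPM plus 0.1, on a log axis, of 12 members in each of the 12 libraries (points, 3 per group) with the mean of each group (line). GABRE, GABRQ, P2RX1, GRIK1, TRPV4 and TRPV2 are highest in K562/IM, GABRG1, SCN9A and KCNT2 lowest in K562/IM, and CACNA1F highest in K562/IM+L, while KCNH2 stays between 298 and 531 CPM.

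TRPV4, an osmosensitive cation channel, was detected in the untreated resistant line alone. It was at 1.51, 1.13 and 0.996 CPM in K562/IM and had no count in any of the 9 other libraries. It was at least 7.86-fold higher in K562/IM than in K562 (adjusted p = 0.000187) and at least 7.22-fold lower in the libraries labelled K562/IM+L. Its response to lycorine could not be measured in the parental line, where both groups were at 0.

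TRPV2 was far more abundant. It was at 58.1, 64.7 and 68.3 CPM in K562, 56.5, 50.4 and 48.2 in K562+L, 142, 134 and 140 in K562/IM and 34.7, 31.7 and 32.7 in K562/IM+L. No group overlapped another. The rise in K562/IM was 1.12 ± 0.08 (adjusted p = 2.46e-05) and the fall in K562/IM+L against K562/IM -2.05 ± 0.07 (adjusted p = 6.47e-07), while the change with lycorine in K562 was -0.30 ± 0.10 and was not called. TRPC1 rose in K562/IM, from 1.85, 2.43 and 1.17 CPM to 7.88, 7.17 and 7.16 (2.02 ± 0.25, adjusted p = 0.000376).

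TRPM6, a channel-kinase of magnesium transport, fell in K562/IM+L against K562/IM from 12.4, 9.02 and 11.7 CPM to 2.73, 2.70 and 2.52 (-2.03 ± 0.16, adjusted p = 2.44e-05) and was at 6.4 to 8.39 CPM in both parental groups. TRPM7, its close relative and the most abundant TRPM gene per length, varied within groups, at 101, 58.4 and 47.1 CPM in K562 and 33.0, 26.7 and 60.6 in K562/IM+L, and was called in none of the 4 comparisons. TRPA1, an irritant-sensing channel, fell in K562/IM+L against K562/IM from 2.45, 2.81 and 3.10 CPM to 0.907, 0.728 and 1.14 (-1.56 ± 0.24, adjusted p = 0.000765). TRPC4AP, which is no channel, was at group means of 135 to 173 CPM and was called nowhere.

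Of the calcium channel pore genes, 2 of 3 tested were higher in K562/IM than in K562 and none lower. The shares of all genes were 13.9% and 5.29%. CACNA1F, the pore subunit CaV1.4 best known from photoreceptors (chrX:49205063-49233371), was at 0.221, 0.155 and 0.579 CPM in K562, 0.196, 0.162 and 0.0766 in K562+L, 1.14, 0.583 and 1.45 in K562/IM and 19.4, 20.4 and 20.8 in K562/IM+L. It rose in K562/IM+L against K562/IM by a log2 fold change of 4.27 ± 0.31 (adjusted p = 1.83e-05), and against K562 by 5.97 ± 0.43 (adjusted p = 4.32e-05). The K562/IM+L libraries were all above every other library. CACNA1I, a T-type pore subunit, moved differently, with a mean of 3.58 CPM in K562/IM and 0.00638 to 0.0775 in the other groups.

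Auxiliary calcium channel subunits also differed. CACNA2D4, an alpha-2-delta subunit, had no count in K562 and K562+L, was at 0.659, 0.396 and 0.419 CPM in K562/IM and at 2.13, 2.65 and 2.57 in K562/IM+L, which was at least 15.9-fold above K562. CACNA2D2, of the same family, fell with lycorine in K562 from 2.72, 2.17 and 3.20 CPM to 1.29, 1.36 and 1.03 (-1.13 ± 0.23, adjusted p = 0.00733), a call lost without K562 replicate 3, where the log2 value was -0.99. CACNA2D2 rose in K562/IM+L against K562/IM, from 1.94, 1.93 and 1.24 to 5.12, 4.68 and 5.91 (1.65 ± 0.22, adjusted p = 0.000395). CACNB1, a beta subunit, was highest in K562/IM at 8.71, 6.99 and 7.52 CPM and lowest in K562/IM+L at 1.39, 1.81 and 2.28 (-2.06 ± 0.21, adjusted p = 0.000106).

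Potassium channels are the largest group of members. Among voltage-gated pore subunits, KCNC4, which encodes a fast Kv3 channel, rose in K562/IM from 4.07, 5.19 and 4.64 to 15.9, 13.9 and 14.9 CPM (1.69 ± 0.12, adjusted p = 2.65e-05). It fell in K562/IM+L to 4.94, 4.24 and 5.23 CPM, where it overlapped K562. KCNH5, of the EAG family, was at 2.48, 2.12 and 2.21 CPM in K562/IM and at 0.383 CPM or less in every other library. KCND1, a Kv4 subunit, was higher in K562/IM (means 6.16 against 2.76 CPM) and in K562/IM+L (6.05) than in K562, and the latter call was lost without K562/IM+L replicate 2 (log2 value 0.98).

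KCNH4, KCNQ5 and KCNT2 were lower in K562/IM than in K562. KCNH4, of the ELK family, was at 10.2, 9.41 and 8.71 CPM in K562, 12.7, 10.8 and 12.2 in K562+L, 1.94, 2.80 and 2.95 in K562/IM and 0.693, 1.09 and 1.64 in K562/IM+L. KCNQ5, an M-current subunit, followed the same order, at 15.7, 12.3 and 10.3, then 24.3, 21.3 and 27.9, then 6.67, 5.63 and 5.16, then 2.34, 2.09 and 2.62 CPM. The fall of KCNQ5 in K562/IM against K562 (-1.13 ± 0.18, adjusted p = 0.00113) was lost as a call without K562 replicate 1, where it was -0.99. KCNT2, a sodium-activated channel, was at 2.87, 1.08 and 1.21 CPM in K562 and 0.335, 0.323 and 0.363 in K562/IM, and rose to 11.3, 9.73 and 17.0 in K562/IM+L (5.24 ± 0.27 against K562/IM, adjusted p = 3.76e-06).

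Of 8 calcium- or sodium-activated potassium channel genes tested in K562/IM against K562, 5 were higher and 1, KCNT2, lower. The shares of all genes were 13.9% and 5.29%. KCNN4, the intermediate-conductance channel of red cells and lymphocytes, was at 1.77, 2.68 and 2.28 CPM in K562, 2.33, 1.44 and 1.70 in K562+L, 8.10, 11.1 and 9.12 in K562/IM and 20.9, 22.1 and 16.1 in K562/IM+L. It rose in K562/IM (2.07 ± 0.20, adjusted p = 9.95e-05) and further in K562/IM+L against K562/IM (1.09 ± 0.16, adjusted p = 0.000679). The summed erythroid and myeloid markers were lowest in K562/IM and highest in K562/IM+L, and a link with KCNN4 was not tested. KCNN1, a small-conductance channel, was at 6.11, 5.23 and 5.60 CPM in K562/IM and at 1.15, 1.11 and 1.17 in K562/IM+L, against 0.258, 0.513 and 0.412 in K562. Its fall with lycorine in K562, to 0.139, 0.0461 and 0.0574 CPM (-2.28 ± 0.62, adjusted p = 0.0226), was lost in 7 of 13 refits. KCNMB4, a beta subunit of the large-conductance channel, fell with lycorine in K562, from 2.14, 1.39 and 2.65 to 0.670, 0.508 and 0.613 CPM (-1.78 ± 0.30). It also fell in K562/IM+L against K562/IM, from 10.8, 10.5 and 11.9 to 2.02, 2.62 and 1.88 CPM (-2.33 ± 0.16). KCNMA1, which encodes the pore of that channel, was at 0.0279 CPM or less as a group mean.

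In the lycorine comparison of the resistant line, 3 of 7 background (KCNK) genes tested were higher and 2 lower, as were 4 and 2 of 9 inward rectifier (KCNJ) genes, beside 14.7% and 13.8% of all genes. KCNK5 was at 76.4, 76.6 and 76.0 CPM in K562, 95.8, 91.4 and 84.7 in K562+L, 98.3, 96.1 and 103 in K562/IM and 29.7, 27.3 and 28.7 in K562/IM+L. Only its fall in K562/IM+L was called (-1.77 ± 0.07 against K562/IM, adjusted p = 1.30e-06, and -1.44 ± 0.08 against K562). KCNK1, the other abundant background channel, was at means of 23.9 to 39.2 CPM and was called nowhere. KCNK4 and KCNK7 stayed under 1 CPM in every library, and KCNK4 was at least 2.82-fold higher in K562/IM+L than in K562, where it had no count. It shares 1628 bases with the read-through KCNK4-TEX40.

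KCNJ11, the pore of the ATP-sensitive potassium channel, was at 5.03, 5.60 and 5.84 CPM in K562, 2.24, 3.26 and 2.54 in K562/IM and 8.02, 6.72 and 6.97 in K562/IM+L. The rise in K562/IM+L against K562/IM (1.45 ± 0.18, adjusted p = 0.000243) held in every refit, while the fall in K562/IM (-1.03 ± 0.18) was lost in 4 of 15, among them without K562 replicate 3 and without K562/IM replicates 1 or 3 in turn. KCNJ14 rose with lycorine in K562, from 3.12, 3.14 and 3.56 to 6.66, 8.66 and 7.14 CPM (1.19 ± 0.15, adjusted p = 0.00136). It shares 350 bases of exon with GRWD1 on the same strand.

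Auxiliary potassium channel subunits split by comparison. KCNE3 fell with lycorine in K562, from 2.76, 2.28 and 2.68 CPM to 0.935, 0.911 and 0.689 (-1.61 ± 0.22, adjusted p = 0.00176), and rose in K562/IM+L against K562/IM, from 3.66, 4.35 and 3.52 to 7.73, 8.63 and 8.22 (1.11 ± 0.13, adjusted p = 0.000225). KCNAB2, a beta subunit, was higher in K562/IM and in K562/IM+L than in K562. It was at 4.42, 3.86 and 4.16 CPM in K562/IM and 6.44, 5.78 and 5.56 in K562/IM+L against 0.749, 0.966 and 0.862 in K562. KCNAB3 rose with lycorine in K562, from 1.67, 1.68 and 1.48 to 3.66, 3.24 and 2.94 CPM (1.03 ± 0.18, adjusted p = 0.00438). That call was lost without K562 replicate 3, without K562+L replicate 1 and under upper-quartile scaling, with log2 values of 0.94 to 1.10. KCNIP2, a calcium-binding subunit, spread widely within groups, from 5.10 to 14.6 CPM in K562 and from 5.58 to 24.1 in K562/IM+L, and was called nowhere.

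Among chloride channel genes, 3 of 9 tested were higher in K562/IM than in K562 and none lower, beside 13.9% and 5.29% of all genes. CLCN5, an endosomal exchanger, was highest in K562/IM, with group means of 15.3, 18.6, 38.5 and 10.4 CPM.

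The same dose of lycorine was set against its control in both lines, and a test of the difference between the 2 effects over all 12 libraries called 53 of 126 members. Of these, 27 had a more positive effect in the resistant line and 26 a more negative one, beside 17.5% and 16.3% of all 13995 genes tested. The 2 effects share no library. SCN9A had the largest positive difference among members that reached 10 CPM, with log2 effects of 0.70 in K562 and 7.23 in the resistant line, a difference of 6.50 ± 0.35 (adjusted p = 3.73e-08). GABRG1 (4.47 ± 0.21), KCNT2 (4.60 ± 0.50) and CACNA1F (5.40 ± 0.67) also had a more positive effect there. GRIK1 (-6.72 ± 0.34), P2RX1 (-5.30 ± 0.42), GABRQ (-4.18 ± 0.52) and KCNK5 (-2.04 ± 0.09) had a more negative one. The lines differed before treatment, and this comparison rests on the libraries whose label is in doubt.

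**Figure D4:**
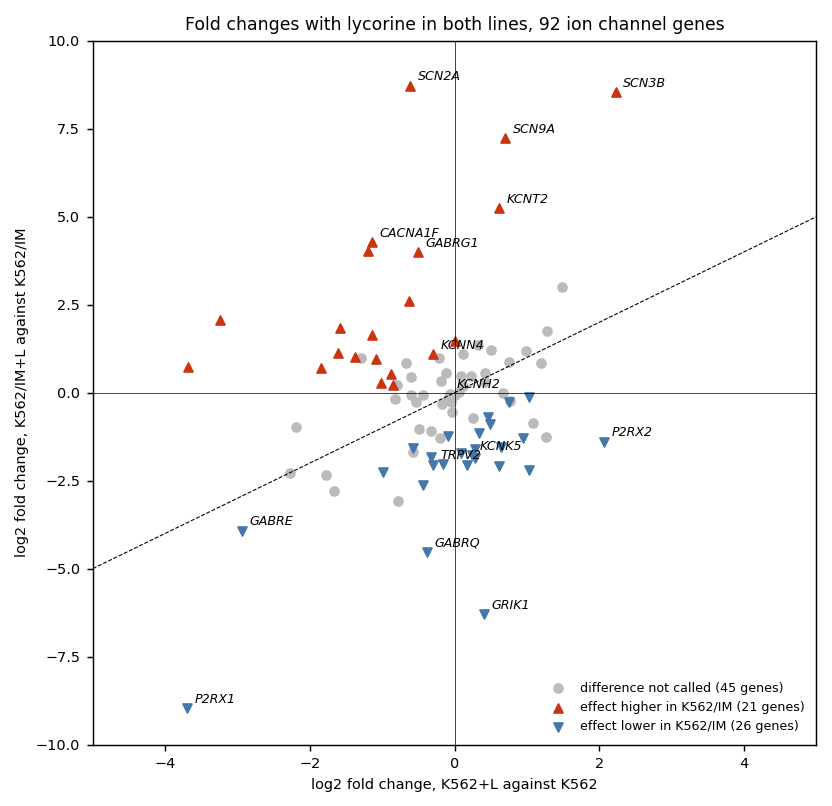
Log2 fold change of K562+L against K562 (horizontal) and of K562/IM+L against K562/IM (vertical) for the 92 members tested in both, marked by the test of their difference, with the line of equal effects dashed. Of these members 21 had a more positive and 26 a more negative effect in the resistant line, and GABRE and P2RX1 lie at the lower left, with falls in both.

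GABRE fell both in K562+L against K562 and in K562/IM+L against K562/IM. Its difference of -1.0 ± 0.10 lies at the fold threshold: 12 of 20 refits put it under 1 in size. P2RX1 and KCNMB4 also fell in both, and for KCNMB4 the difference was -0.57 ± 0.32 (adjusted p = 0.149). KCNH2 had a difference of 0.01 ± 0.14 (adjusted p = 0.945), which does not show that its effects were equal.

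K562/IM and K562/IM+L enter several comparisons, so values are given side by side rather than counted across them. By mean level, 66 members were at 1 CPM or more in K562/IM, 62 in K562/IM+L, 53 in K562 and 50 in K562+L. There were 8 members that reached that level in K562/IM alone, among them CACNA1I, GRIA4, KCNAB1, KCNH5, KCNK12, TRPV4 and TRPV6. A further 7 did in K562/IM+L alone, P2RX2 did in K562+L alone, and none did in K562 alone. Of the members at 1 CPM or more, the median coefficient of variation between libraries was 14.7% in K562, 10.0% in K562+L, 9.39% in K562/IM and 12.8% in K562/IM+L.

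Neighbouring members could differ in level. By GENCODE positions, 113 of the 231 members lie within 500000 bases of another member, in 45 clusters. On the X chromosome, GABRE, GABRA3 and GABRQ were all higher in K562/IM than in K562, GABRA3 with a log2 fold change of 0.95 that missed the fold threshold. On chromosome 2, SCN9A was abundant in K562 while its neighbours SCN1A and SCN7A were at means of 0 and 0.131 CPM. On chromosome 4, GABRG1 was at 53.1 CPM in K562 while GABRA2, GABRA4 and GABRB1 beside it were at 0.0419 CPM or less.

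Channel and transporter genes outside the families were read from 4 lists. Of 20 store-operated and intracellular calcium release genes tested in K562/IM against K562, 5 were higher and none lower (median log2 fold change 0.53), beside 13.9% and 5.29% of all genes. In K562/IM+L against K562/IM none was higher and 5 lower, beside 14.7% and 13.8% of all genes. RYR1, a ryanodine receptor, had means of 6.54, 2.72, 23.5 and 4.99 CPM in the parental line without and with lycorine and the resistant line without and with it, and MCOLN3, a lysosomal cation channel, 0.128, 0.411, 4.92 and 0.0919. Of 21 mechanosensitive, acid-sensing and other cation channel genes tested in K562/IM against K562, 7 were higher and 1 lower. The shares of all genes were 13.9% and 5.29%. In the lycorine comparison of the resistant line, 11 of 22 were higher and 6 lower, beside 14.7% and 13.8% of all genes. Among the higher was ASIC4, an acid-sensing channel family member, with means of 5.38 CPM in K562/IM and 81.7 in K562/IM+L.

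Of the volume-regulated and other anion channel genes, 4 of 22 were higher and 2 lower in K562/IM against K562, where 13.9% and 5.29% of all genes were called, and 4 higher and 5 lower in K562/IM+L against K562/IM, where 14.7% and 13.8% of all genes were called. LRRC8C, a volume-regulated channel subunit, had means of 6.98, 8.76, 31.9 and 3.41 CPM, and ANO9, of the anoctamin family, 28.5, 24.1, 2.23 and 131. Of the pumps and exchangers, 4 of 13 were higher and 1 lower in K562/IM against K562 (all genes 13.9% and 5.29%), and 3 of 14 were higher and 5 lower in K562/IM+L against K562/IM (all genes 14.7% and 13.8%). ATP2A3, the calcium pump SERCA3, had means of 85.5, 22.5, 192 and 32.3 CPM, and ATP1B2, a sodium pump subunit, 59.2, 19.4, 5.51 and 200.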

How the data were processed

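Poly(A) RNA of 12 libraries was sequenced by the authors, who deposited 1 table of counts per gene. Per the submitters' processing notes FastQC, STAR, StringTie and DESeq2 were used with build hg38. Versions, roles and strand handling are not given in the sources used here. Low counts lay near multiples of 4 more often than evenly spread numbers would (67.9% of values from 1 to 25 against 52%), so 12 counts per library, standing for 3 fragments, was used as the floor for fold bounds.

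Groups were taken from the labels. Counts were normalised by TMM and tested with edgeR 4.0.16 (quasi-likelihood, R 4.3.3), on the 6 libraries of each comparison and on all 12 for the difference of lycorine effects, after filterByExpr (minimum count 10), with Benjamini-Hochberg adjustment over all genes tested. SEs are of the log2 fold change. Positions and exon lengths came from GENCODE 29 (GRCh38), upstream sequences from RefSeq (GRCh38.p14). Of 200 genes planted in simulated counts of K562/IM+L against K562/IM, 183 were recovered, and 7 genes not planted were called. Planted genes were above a minimum mean count and their changes larger than the fold threshold. Recovery was thus not measured for lower genes or for changes near that threshold. No other gene was changed in the simulation, whereas 3917 of 13727 genes were called in the deposited counts. Performance with that many changed genes was not measured either.

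Members and gene lists were chosen with earlier results of these data known. Named genes were up to 8 called members per direction and comparison with the smallest p, non-overlapping groups and at least 1 CPM, up to 2 below that level per comparison, GABRE, and the member of each subfamily with the highest level per length. Further members were named as neighbours, as parts of the same channel type or for their level, after their values were seen. Alternatives were DESeq2 1.42.0, other scalings, filters and thresholds, 1 fit over all libraries, counts divided by 4, the replicate block and leaving out each library. Values of some members are not reported here.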

Additional observations from a re-analysis of the deposited data

Results flagged for a closer look

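For 55 named members the response to lycorine was compared between both lines, and 36 differed (edgeR quasi-likelihood test, Benjamini-Hochberg adjusted p under 0.05 and a log2 difference over 1 in size). Values are given for 33 of them and are the log2 effect in the resistant line less that in K562, and all rest on the group whose label is in doubt. Most named members were chosen by calls in the same libraries, so their share is high by selection. Over all members tested 53 of 126 (42.1%) were called, and over all genes 33.7%.

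Among receptor genes, the difference was 4.47 for GABRG1, -1.0 for GABRE, -4.18 for GABRQ, -6.72 for GRIK1 and -1.15 for GRIN2D. It was -5.30 for P2RX1, -3.48 for P2RX2, 2.38 for P2RX6, -1.83 for CHRNA5 and 1.26 for CHRNB1. Sodium channel genes gave 9.31 for SCN2A and 6.28 for SCN3B, both at 0 in K562/IM so that the fitted size is no measure, and 6.50 for SCN9A.

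Calcium channel genes gave 5.40 for CACNA1F, 2.76 for CACNA2D2 and -2.26 for CACNB1. The named TRP genes gave -1.01 for TRPA1 (a call lost in 12 of 20 refits), -1.18 for TRPC1, -1.89 for TRPM6, -1.40 for TRPM7 and -1.77 for TRPV2. Over all TRPM genes tested, 3 of 5 had a more positive effect in the resistant line and 2 a more negative one. The shares of all genes were 17.5% and 16.3%.

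Potassium channel genes with a more positive effect in the resistant line were KCNAB2 (1.40), KCNE3 (2.70), KCNJ11 (1.43), KCNN4 (1.36), KCNT2 (4.60), the regulator KCNRG (3.40) and the antisense transcript KCNMB2-AS1 (2.02). Those with a more negative effect were KCNAB3 (-1.18), KCNC4 (-1.92), KCNH4 (-1.5), KCNK5 (-2.04) and KCNQ5 (-2.25). KCNRG shares 1086 bases of exon with TRIM13 on the same strand.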

How the results depend on the processing

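No named call that was followed across the refits changed direction under the alternatives run. The number of members called in K562+L against K562 was 13, 28 with no fold threshold, and 8 (without K562 replicate 3) to 20 (without K562 replicate 1) when 1 library was left out. Requiring 10 counts in every library, which drops genes near 0 in 1 group, gave 27 members in K562/IM against K562, 39 in K562/IM+L against K562/IM and 33 for the difference of lycorine effects, instead of 46, 59 and 53. Other settings kept the counts within 1.5 times. With the replicate block they were 13, 42, 53 and 32 in the order of the 4 comparisons above and 49 for the difference. Deviations of same-numbered libraries from their group means had correlations of -0.52 to 0.14. With 3 libraries per group these cannot settle whether the numbers mark pairs or batches. In the 4 comparisons, refits followed only the 12, 16, 18 and 18 calls picked there mainly by the smallest p. Of these, calls were lost in 13 of 177 refits in K562+L against K562 and 5 of 234 in K562/IM against K562. They were lost in 0 of 264 in K562/IM+L against K562/IM and 1 of 264 in K562/IM+L against K562. For the difference, named calls were lost in 50 of 711. Other calls given above were not followed, among them P2RX5, P2RX6 and KCNN4 in K562/IM+L against K562/IM. In the difference, TRPA1 was lost in 12 of 20 refits, SCN3B in 11 of 18 and KCNRG in 9 of 19. Genes under about 1 CPM rest on few counts, so changes of size similar to their spread were not detectable. Where a leave-one-out fit left 2 libraries, the spread was estimated from the rest.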
